A study of Mus musculus with 30 samples.

Results

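The 43 genes described here encode parts of the machinery that copies DNA and divides the cell. They were taken from a given list and not by their measured values: 15 act in S phase (Rrm1, Rrm2, Tyms, Dut, Mcm2, Mcm3, Mcm4, Mcm5, Mcm6, Mcm7, Gins2, Pcna, Cdc6, Ccne1 and Ccne2) and the other 28, from Mki67, Top2a and Cdk1 to the Cenp and Kif genes, were counted as mitotic. All 43 were present in every gene table, out of 31053, 15411 and 14636 genes in the single-cell tables of MOC1, MOC1E1 and MOC22 tumours, and out of 55573 gene identifiers in bulk RNA. MOC1, MOC1E1 (MOC1esc1 in the growth protocol) and MOC22 are mouse oral squamous cell carcinoma lines, grown as tumours in C57BL/6J mice, each as a single cell line. Antibodies were injected intraperitoneally on days 3, 6 and 9 after inoculation. MOC1-bearing and MOC1E1-bearing mice were given isotype control, anti-CTLA-4 or anti-PD-1, and MOC22-bearing mice isotype control or anti-PD-1; these treatments are called the isotype, CTLA-4 and PD-1 arms below. Each of these 8 groups was 1 single-cell library, so no value between treatments has a replicate check. The labels call the MOC1 and MOC22 material tumour infiltrating T cells and the MOC1E1 material tumour infiltrating immune cells. Bulk RNA came from MOC1 and MOC1E1 tumours and from both lines in culture, in 4 groups of 3 libraries, all labelled as untreated. The column names of all 6 culture libraries, MOC1 and MOC1E1 alike, hold the tag plusifng, which the labels do not explain. Mouse ages were not given in the sources used here.

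A cell that commits to division first builds nucleotides and loads the MCM helicase onto replication origins. It then copies its DNA with the help of the sliding clamp PCNA, and later condenses, aligns and separates its chromosomes under the cyclin B and CDK1 kinase. E2F factors switch on many of the S phase genes, while many mitotic genes are repressed in resting cells through the DREAM complex and rise together late in the cycle. T cells expand their clones through this same programme, and the receptors PD-1 and CTLA-4 restrain them.

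Promoters, the 250 bases before a transcript's start, were read for 35 of the 43 members from RefSeq (mouse build GRCm38.p6), as 13 promoters of 12 S phase genes and 23 promoters of 23 mitotic genes. Words for 3 motifs were searched on both strands: the CHR element TTTGAA, the CCAAT box, and E2F sites written as TTTGGCGC, TTTCGCGC, TTCCCGCC or TTTCCCGC. The CHR word lay in 9 of 23 mitotic promoters (39.1%), 1 of 13 S phase promoters (7.7%) and 16% of all 32851 promoters. The CCAAT box lay in 91.3% of mitotic, 69.2% of S phase and 33.8% of all promoters. An E2F word lay in 38.5% of S phase promoters (Cdc6, Mcm5, Mcm6, Mcm7 and Rrm1), in 4.3% of mitotic ones (Cdk1 alone) and in 2.9% of all. A match describes these letters only. The 4 promoters below belong to the members on which the bulk comparisons turn, Ccne1, Ccnb2 and Cdca8, which differed between MOC1E1 and MOC1 both in tumours and in culture, and Mcm5, an E2F-bearing S phase gene that differed in culture. They lie at chr7:38107491-38107740 on the minus strand (Ccne1), chr8:75109259-75109467 on the plus strand (Mcm5), chr9:70421555-70421804 on the minus strand (Ccnb2) and chr4:124936918-124937167 on the minus strand (Cdca8), and are written 5′ to 3′ with matched words in capitals. That of Mcm5 is shown only up to the start of the gene's own record, 209 bases of the window.
Ccne1: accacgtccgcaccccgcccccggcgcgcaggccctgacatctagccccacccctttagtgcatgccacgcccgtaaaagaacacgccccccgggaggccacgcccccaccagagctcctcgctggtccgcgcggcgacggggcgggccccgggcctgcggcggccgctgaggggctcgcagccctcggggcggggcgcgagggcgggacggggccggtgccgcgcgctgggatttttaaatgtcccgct
Mcm5: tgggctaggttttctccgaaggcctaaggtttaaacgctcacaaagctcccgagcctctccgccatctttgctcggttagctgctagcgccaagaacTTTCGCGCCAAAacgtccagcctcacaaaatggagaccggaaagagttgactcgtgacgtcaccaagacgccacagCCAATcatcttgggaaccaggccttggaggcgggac
Ccnb2: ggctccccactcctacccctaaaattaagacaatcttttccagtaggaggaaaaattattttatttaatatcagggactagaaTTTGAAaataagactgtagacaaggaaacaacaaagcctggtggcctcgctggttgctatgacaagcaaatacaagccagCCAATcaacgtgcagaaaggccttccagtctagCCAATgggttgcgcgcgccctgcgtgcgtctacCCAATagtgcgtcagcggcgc
Cdca8: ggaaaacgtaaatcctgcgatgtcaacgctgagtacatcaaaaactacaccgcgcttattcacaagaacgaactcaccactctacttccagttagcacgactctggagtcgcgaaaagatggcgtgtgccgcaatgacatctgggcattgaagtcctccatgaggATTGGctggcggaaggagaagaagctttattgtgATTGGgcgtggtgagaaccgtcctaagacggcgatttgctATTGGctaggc
In Mcm5 the capitals mark 2 overlapping E2F words at bases 98 to 105 and 102 to 109 and a CCAAT box at bases 174 to 178. In Ccnb2 they mark the CHR word at bases 84 to 89 and 3 CCAAT boxes at bases 164 to 168, 197 to 201 and 230 to 234. Cdca8 held 3 CCAAT boxes on the other strand and none of the other words, and Ccne1 held none of the words in this window.

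The single-cell libraries held 14766019 to 28466596 UMIs (unique molecular identifiers, each 1 captured RNA molecule) over 2755 to 4943 barcodes, and any pair shared at most 35 barcodes. Cells with no fewer than 300 genes and no more than 10% mitochondrial UMIs were classed from their own transcripts. CD8 cells held a Cd3 gene and Cd8a or Cd8b1 without Cd4 or Foxp3, and CD4 cells held Cd3 and Cd4 without Cd8 or Foxp3. Foxp3-positive cells held Cd3 and Foxp3 without Cd8, so T cells with both Foxp3 and Cd8 fell in no class. NK cells held Ncr1 or Klrb1c and no Cd3, and myeloid cells held at least 2 of 9 myeloid genes and neither Cd3 nor the NK genes. Between 11.5 and 39.9% of cells fell in no class, and a class under 50 cells was given no value, which left NK cells to MOC1E1 alone and left anti-CTLA-4 libraries without a Foxp3-positive class (44 cells in MOC1, 41 in MOC1E1). Levels (CPM) are UMIs of a gene or list per 1000000 UMIs of the class, with exact Poisson 95% intervals that cover counting error only. Summed regulatory T cell markers were 2806 to 5774 CPM in Foxp3-positive cells and 147 to 891 in CD8 cells, and summed NK markers 2759 to 4002 in NK cells and 176 to 728 in CD8 cells. Myeloid markers in CD8 cells reached 12 to 24.4 CPM in MOC1 and MOC22 but 213.5 to 1149 in MOC1E1.

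In each class and library that gave a value the sum of the 28 mitotic genes exceeded that of the 15 S phase genes. Hmgb2 alone gave 25.7 to 60.4% of the mitotic sum, so this order also reflects the make-up of the lists. In MOC1E1 every lymphocyte class stood above the myeloid cells. The mitotic sum ran from 1131 to 3326 CPM in CD8 cells (8 libraries), 596 to 2295 in CD4 cells (8), 1526 to 2782 in Foxp3-positive cells (6) and 671 to 780.1 in NK cells (3 MOC1E1 libraries). In the 3 MOC1E1 libraries the myeloid sum was 442, 465 and 382 in the isotype, PD-1 and CTLA-4 arms. The S phase sum ran from 505 to 1217 in CD8, 392 to 737 in CD4, 339 to 1126 in Foxp3-positive and 347 to 419 in NK cells. In myeloid cells of MOC1E1 it was 141, 130.0 and 114. The 56 myeloid cells of the MOC1 anti-PD-1 library, with no matching isotype class, stood at 976 and 391 for mitotic and S phase genes. Much of each sum sat in few cells and few genes. The tenth of CD8 cells with the most mitotic UMIs held 68.1 to 83.8% of them, and Hmgb2, a chromatin protein that resting cells also make, gave 34.3 to 43.6%.

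**Figure D1:**
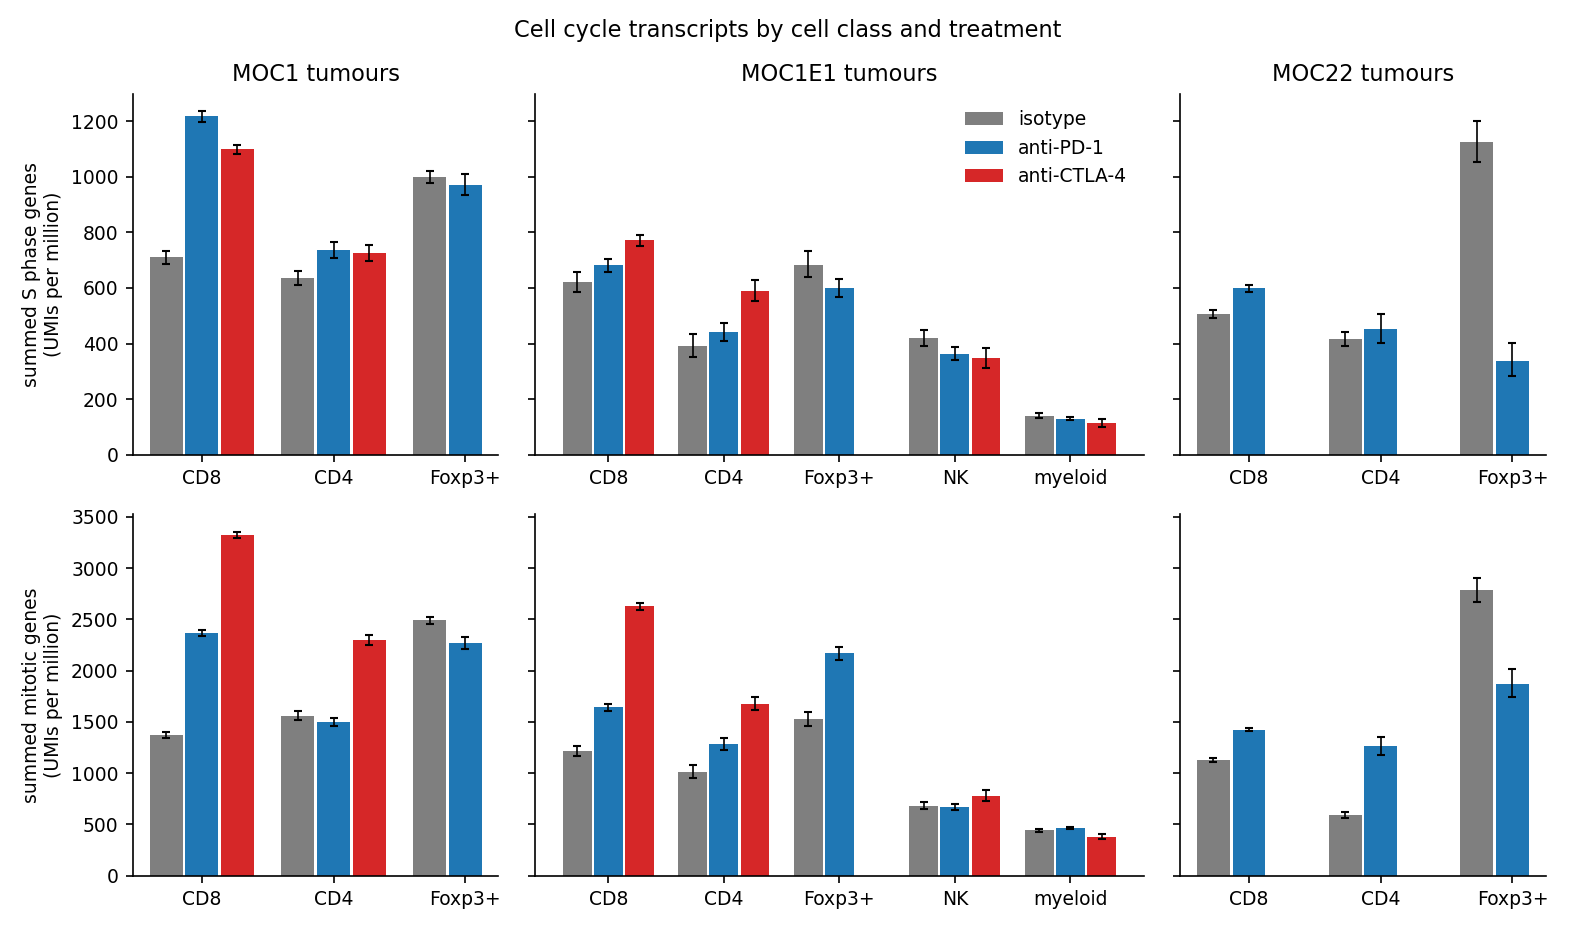
Summed UMIs of the 15 S phase and the 28 mitotic genes in CPM, UMIs per 1000000 UMIs of each class, by library, with exact Poisson 95% intervals as bars. Mitotic sums reach 3326 CPM in CD8 cells of MOC1 tumours in the CTLA-4 arm, while those of myeloid cells in MOC1E1 lie between 382 and 465.

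In CD8 cells of MOC1 tumours both phases were higher with either antibody than with isotype, the same isotype library serving both comparisons. The S phase sum was 710.4 CPM with isotype (687 to 734), 1217 in the PD-1 arm and 1099 in the CTLA-4 arm. The mitotic sum was 1372 with isotype, 2365 in the PD-1 arm and 3326 in the CTLA-4 arm. In the PD-1 arm both sums were higher by nearly the same factor. It was 1.71-fold for S phase (log2 ratio 0.78, interval 0.72 to 0.83) and 1.72-fold for mitotic genes (0.79, 0.75 to 0.82). In the CTLA-4 arm the sums parted, 1.55-fold for S phase (0.63, 0.58 to 0.68) and 2.42-fold for mitotic genes (1.28, 1.24 to 1.31). The mitotic UMIs per S phase UMI thus stood at 1.93 (1.85 to 2.01) with isotype, 1.94 in the PD-1 arm and 3.03 (2.97 to 3.08) in the CTLA-4 arm. Hmgb2 gave 39.0%, 34.3% and 43.6% of the mitotic UMIs in the isotype, PD-1 and CTLA-4 arms. The log2 ratio of the median member differed between phases in the PD-1 arm too, at 0.73 for S phase and 1.02 for mitotic genes. In the CTLA-4 arm these medians were 0.56 and 1.36. The 5% of cells with most UMIs in a library, and cells with more than 1 hashtag, held 27.8% of the mitotic UMIs with isotype and 46.1% in the PD-1 arm. Without them the log2 ratios of the PD-1 arm were 0.50 (S phase) and 0.53 (mitotic). The median depth of these CD8 cells was 5117, 6405 and 5744 UMIs in the isotype, PD-1 and CTLA-4 arms, and summed carcinoma markers stood at 97.2, 19.5 and 9.4 CPM. Their part in the ratios was not tested.

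Member by member, 26 of the 28 mitotic genes were over 1.5-fold higher in the PD-1 arm (median log2 ratio 1.02) and 27 of 28 in the CTLA-4 arm (median 1.36), where 8.71% and 10.7% of all genes with at least 50 UMIs were. For S phase genes these counts were 11 of 15 (median 0.73) and 7 of 15 (0.56). The kinase Cdk1 stood at 16.5 CPM with isotype, 41.3 in the PD-1 arm and 43.4 in the CTLA-4 arm. Its partner Ccnb1 (cyclin B1) stood at 6.05, 14.4 and 17.8, and the mitotic kinase Plk1 at 5.85, 13.6 and 16.4. These 3 lay closer to each other between the antibody arms than to isotype. Mki67, a coat protein of mitotic chromosomes and the usual marker of proliferation, was 31.7, 50.6 and 87.6, and Top2a, which untangles DNA, was 49.4, 86.1 and 104. Both were highest in the CTLA-4 arm.

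Among the S phase genes, Rrm2, the regulated subunit of ribonucleotide reductase, stood at 41.2, 88.3 and 106 CPM in the isotype, PD-1 and CTLA-4 arms. Tyms, which makes thymidylate, stood at 32.3, 63.0 and 71.0. The clamp Pcna was 88.2, 114 and 136, and the helicase subunit Mcm5 was 45.2, 75.1 and 70.3. Ccne1 (cyclin E1), which drives entry into S phase, stood at 14.1, 20.9 and 17.8, and its interval in the CTLA-4 arm included no difference (log2 ratio 0.33, −0.05 to 0.74). Rrm2 and Tyms had larger ratios than Ccne1 in both arms, a difference that was not tested. The ends of the list in the PD-1 arm were Cks2 (−0.08), Kif23 (0.00 after rounding) and Pcna (0.37) at the bottom and Ccna2 (1.34), Ccnb2 (1.36) and the origin licensing factor Cdc6 (1.38) at the top. In the CTLA-4 arm they were Mcm2 (−0.06), Gins2 (0.29) and Ccne1 (0.33) against Cdc6 (1.62), the spindle checkpoint kinase Bub1b (1.87) and the kinetochore protein Cenpf (1.91).

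**Figure D2:**
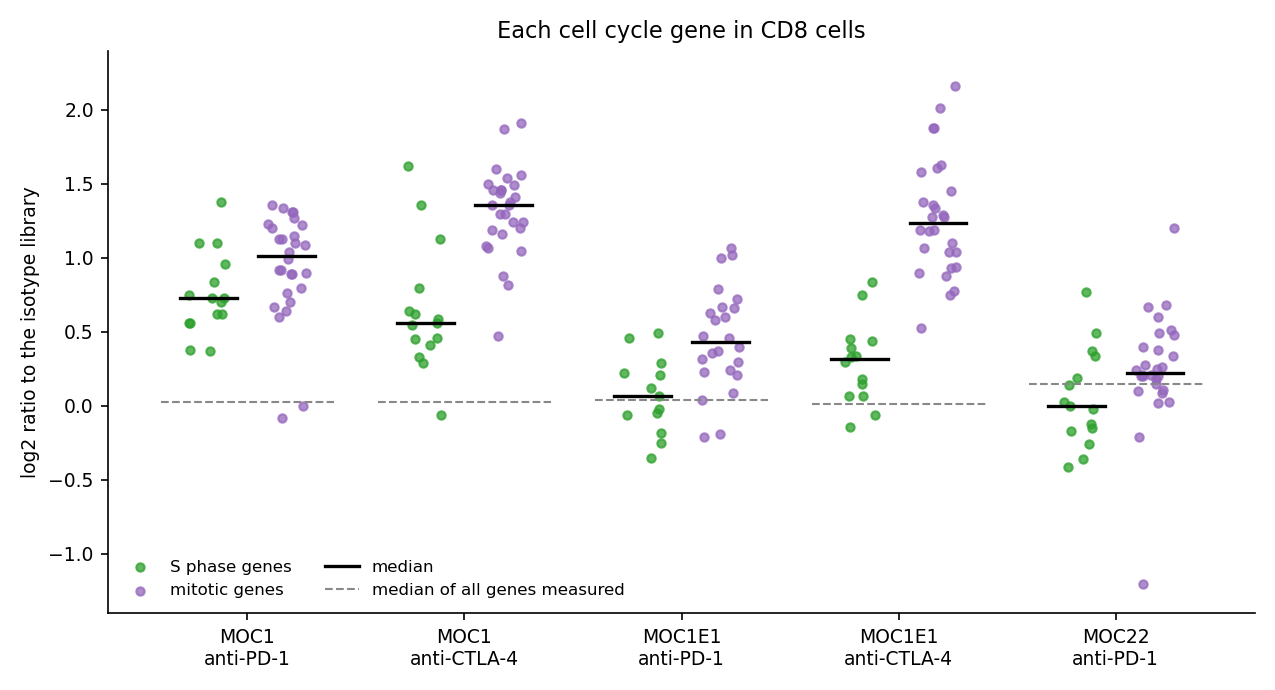
Log2 ratio of each member in CD8 cells, treated to isotype, for the 5 comparisons, with S phase and mitotic genes in different colours. The mitotic genes centre on 1.02 and 1.36 in MOC1 and on 1.23 in the CTLA-4 arm in MOC1E1, and on 0.43 and 0.23 in the other 2 comparisons.

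In MOC1E1 tumours the anti-CTLA-4 library showed the same separation of phases in CD8 cells, and the anti-PD-1 library a smaller one. The mitotic sum was 1213 CPM with isotype, 1641 in the PD-1 arm and 2626 in the CTLA-4 arm, and the S phase sum 622, 681 and 772. Log2 ratios were 0.44 (0.37 to 0.50) for mitotic and 0.13 (0.03 to 0.23) for S phase genes in the PD-1 arm, and 1.11 (1.05 to 1.18) and 0.31 (0.22 to 0.40) in the CTLA-4 arm. Cells of the 5% with most UMIs held 54.5% of the mitotic UMIs in the CTLA-4 arm, and without them that mitotic ratio was 0.61. In the PD-1 arm the S phase ratio was 0.33 without such cells and 0.03 without Dut and Pcna, and the mitotic ratio was 0.37 without cells that held at least 2 myeloid genes. Of the mitotic members that reached 50 UMIs, 9 of 24 were over 1.5-fold higher in the PD-1 arm (all genes 8.42%) and 27 of 28 in the CTLA-4 arm (12%). Of the S phase members it was 0 of 13 and 2 of 14. Cdk1 was 9.71, 17.2 and 36.7 CPM in the order isotype, PD-1, CTLA-4. Mki67 was 39.4, 42.1 and 97.1, Ccnb1 7.01, 9.27 and 19.9, and Plk1 6.47, 8.30 and 15.3. In the PD-1 arm, the intervals of Mki67, Ccnb1, Plk1 and Top2a (57.7 to 50.8 CPM) all included no difference. The lowest ratios in the PD-1 arm were those of the helicase subunits Mcm3 (−0.35) and Mcm5 (−0.25, −0.67 to 0.19) and the spindle kinesin Kif11 (−0.21), and in the CTLA-4 arm those of the helicase subunits Mcm2 (−0.14), Mcm3 (−0.06) and Mcm4 (0.07). The top held Cenpe (1.00), Ube2c (1.02) and Cenpa (1.07), and then Kif23 (1.88), Ube2c (2.01) and Cenpe (2.16), which act at kinetochores, in cytokinesis and in the destruction of cyclin B.

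In CD8 cells of MOC22 tumours both phases were somewhat higher in the PD-1 arm than with isotype, and few members stood apart. The mitotic sum was 1131 CPM with isotype and 1425 in the PD-1 arm (log2 ratio 0.33, 0.30 to 0.37), and the S phase sum 505 and 599 (0.25, 0.20 to 0.30). Only 4 of 28 mitotic and 1 of 15 S phase members were over 1.5-fold higher, below the 17.3% of all genes, whose median ratio here was 0.15. The median S phase member stood at 0.00 after rounding, and the higher S phase sum came with Dut, which removes uracil nucleotides, at 108 CPM with isotype and 184 in the PD-1 arm. Without Dut and Pcna the S phase ratio was 0.07. Mki67 was 46.1 and 47.0 and Pcna 60.4 and 61.7. Rrm2 was lower in the PD-1 arm, at 44.2 and 33.3 (−0.41, −0.59 to −0.22), as were Kif23 (−1.20) and Ccne1 (−0.36). Plk1 (0.68), Dut (0.77) and Cenpa (1.20) were at the top. Cells of the 5% with most UMIs held 70.1% and 63.4% of the mitotic UMIs in CD8 cells of these libraries, and without them the ratios were 0.65 (mitotic) and 0.52 (S phase).

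Other genes of the cycle, from lists that also drew on earlier results of these data, were set beside the members. Of 54 other mitotic genes, those over 1.5-fold higher in CD8 cells were 30 of 48 measured in the PD-1 arm and 39 of 52 in the CTLA-4 arm in MOC1, 3 of 25 and 36 of 49 in MOC1E1, and 10 of 53 in MOC22. Of 52 other S phase genes they were 21 of 51, 18 of 52, 1 of 40, 9 of 47 and 2 of 50 in the same order. The shares of all genes were 8.71, 10.7, 8.42, 12 and 17.3% in that order. In MOC22 the other mitotic genes were thus near the share of all genes. The other S phase genes were below it in the PD-1 arm of MOC1E1 and MOC22. Cell cycle inhibitors had medians of 0.03 and 0.21 in MOC1, 0.12 and 0.29 in MOC1E1, and 0.38 in MOC22. For MOC22 that median was above those of both member groups.

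Shares of cells gave the same order as the sums in MOC1. Each cell was thinned to 2000 UMIs, and a cell was counted when it held UMIs of at least 3 different mitotic members. This level is a cut through a continuous range. In MOC1 CD8 cells the share was 8.80% of 773 cells with isotype (exact Clopper-Pearson interval 6.90 to 11), 17.1% of 1389 in the PD-1 arm (15.1 to 19.1) and 21.6% of 2039 in the CTLA-4 arm (19.8 to 23.4), after leaving out 60, 52 and 113 shallower cells. Without thinning the shares were 28.8, 42.3 and 45.6%. For S phase members the thinned shares were 9.06, 15.8 and 15.0%. In MOC1E1 the thinned mitotic shares were 7.41% of 270 cells, 12.2% of 748 and 13.9% of 1301, while the S phase shares were 8.52, 8.02 and 8.92%. In MOC22 the mitotic shares were 2.88% of 1458 and 5.47% of 2175. Myeloid cells of MOC1E1, at 1.75, 2.15 and 0.752%, give the level in cells with few such transcripts, at median depths of 1700 to 5192 UMIs against 4745 to 5926 in CD8 cells before thinning. Between 22 and 562 CD8 cells per library lay within 1 member of the cut.

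Every MOC1 library carried 4 hashtags, and the sources used here do not say what each marks, so they give a spread within a library and not replicates. S phase sums of CD8 cells ran from 605 to 835 CPM over the isotype hashtags, 1026 to 1344 in the PD-1 arm and 842 to 1209 in the CTLA-4 arm. Mitotic sums ran from 1064 to 1721, 1725 to 2779 and 2318 to 3799. The isotype range met neither treated range, though its highest mitotic value nearly touched the lowest of the PD-1 arm, and its highest S phase value the lowest of the CTLA-4 arm. Without Hmgb2, Stmn1 and Cks1b the mitotic ranges were 399 to 831, 746 to 1370.1 and 819 to 1536, and they overlapped. These genes were set aside as ones that resting cells may also make. They were seen in 71.2, 20.0 and 8.76% of the isotype CD8 cells, while Cks2 (35.1%) and Cenpa (23.5%) stayed in.

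**Figure D3:**
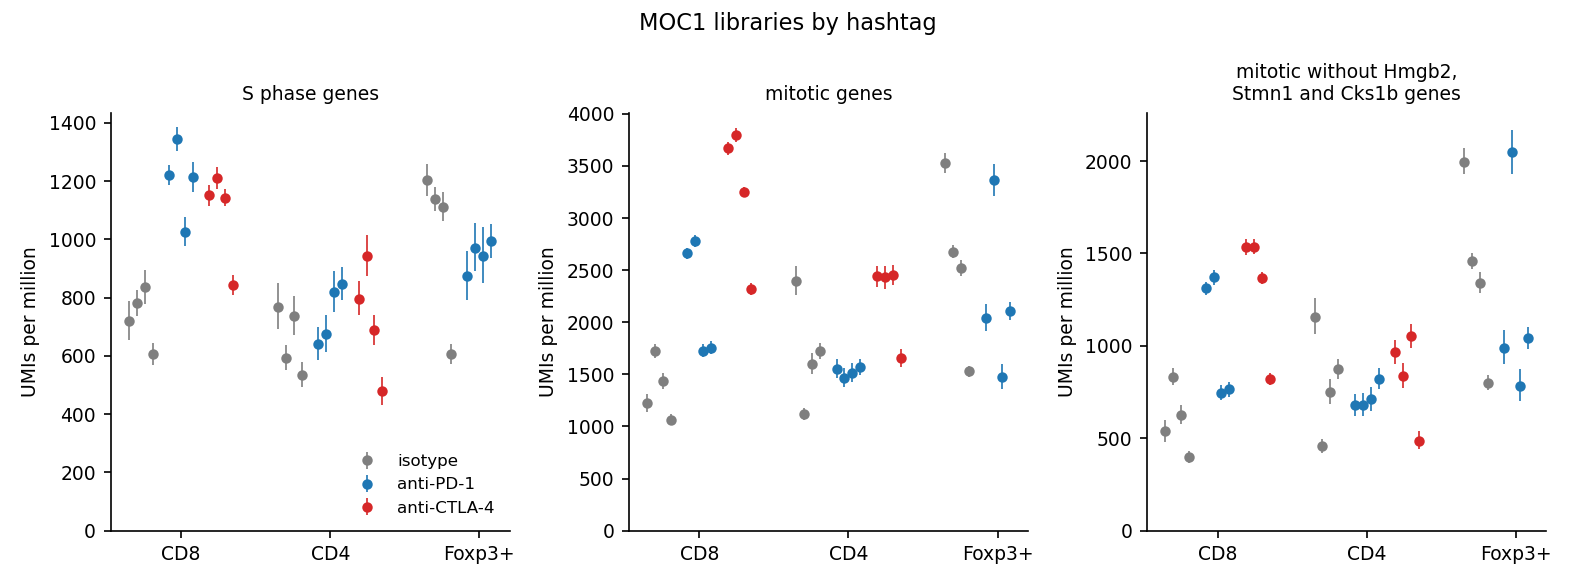
Summed UMIs of S phase and mitotic genes in CPM in each hashtag of the 3 MOC1 libraries, for CD8, CD4 and Foxp3-positive cells. Mitotic sums of CD8 cells span 1064 to 1721 with isotype and 2318 to 3799 in the CTLA-4 arm, while those of Foxp3-positive cells overlap between isotype and anti-PD-1.

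Within CD8 cells, members were higher in cells that also held Pdcd1 (which encodes PD-1) and Havcr2 (TIM-3, found on exhausted T cells) than in cells with Tcf7 (a factor of stem-like T cells) and no Havcr2, in all 7 libraries where both sets reached 50 cells. No cell is in both of these sets. The first was deeper in each of the 7 libraries, with median UMIs of 6461 to 9086 against 4466 to 6560, and the part of depth in the difference was not tested. The mitotic sums of the 2 sets were 2633 and 988 CPM with isotype in MOC1, 3432 and 762 in the PD-1 arm, and 3891 and 3231 in the CTLA-4 arm. So the sets lay far apart in the PD-1 arm and close together in the CTLA-4 arm. Cells with none of Pdcd1, Havcr2 and Tcf7 were at 943, 948 and 3014 in the same order, so the CTLA-4 arm of MOC1 was above isotype in these sets too. In MOC1E1 the 2 sets were at 2129 and 1072 in the PD-1 arm and 3632 and 2296 in the CTLA-4 arm, and in MOC22 at 2227 and 381 with isotype and 1763 and 1176 in the PD-1 arm. In the MOC1E1 isotype library, where the first set was under 50 cells, cells with Pdcd1 and no Havcr2 (1100.4) stood below those with Tcf7 and no Havcr2 (1423). In MOC22, the set with Pdcd1 and Havcr2 thus stood lower in the PD-1 arm than with isotype, while it went from 172 to 975 cells.

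**Figure D4:**
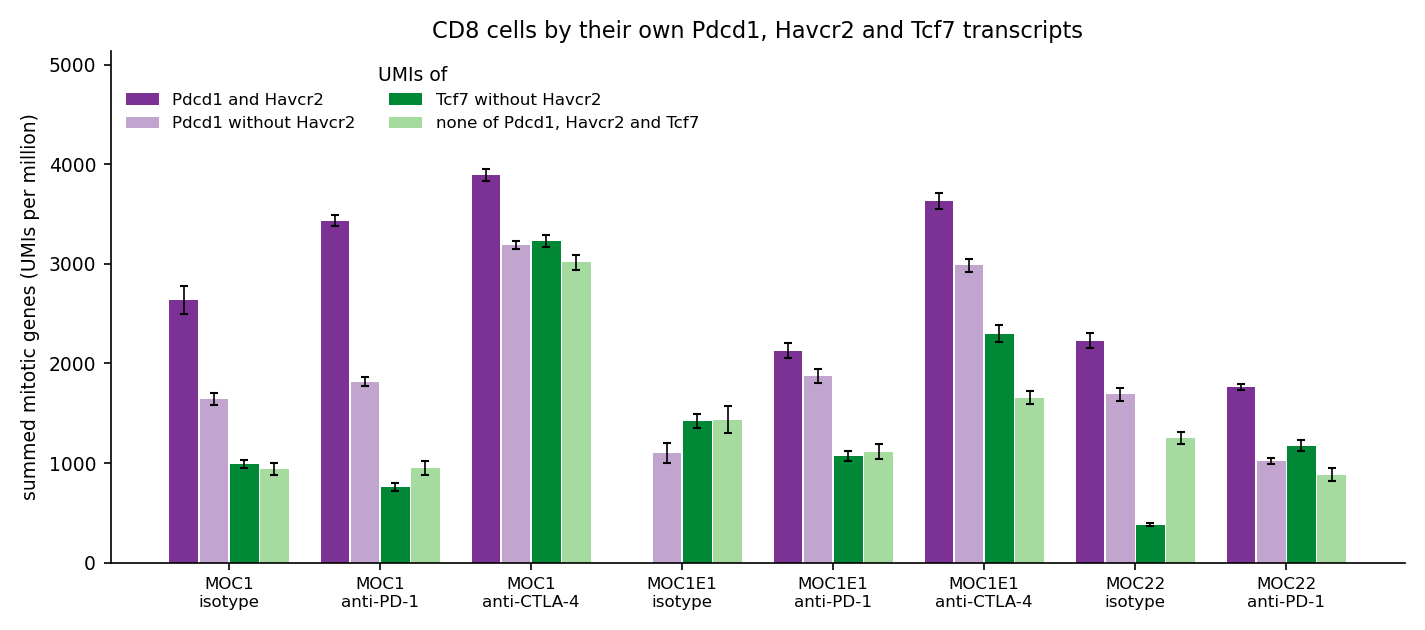
Mitotic sum (CPM) of CD8 cells by the transcripts they hold, in each library, with exact Poisson 95% intervals. Cells with Pdcd1 and Havcr2 reach 3432 against 762 for Tcf7 without Havcr2 in MOC1 in the PD-1 arm, and 3891 against 3231 in the CTLA-4 arm.

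T cell receptor sequences split by clone size those cells that had exactly 1 productive alpha and 1 productive beta chain. These were only part of each class, such as 306 and 152 of 833 MOC1 CD8 cells with isotype. Their sums can therefore differ from those of the whole class. In MOC1 CD8 cells in the PD-1 arm, the mitotic sum was 1368 CPM in 312 cells whose receptor was seen once and 3153 in 652 cells of clones of at least 2 cells, at median depths of 5711 and 7238 UMIs. With isotype the values were 1338 and 1607, and in the CTLA-4 arm 2620 and 3269. In MOC1E1 they were 1052 and 2334 in the PD-1 arm, but 3515 and 3555 in the CTLA-4 arm. In Foxp3-positive cells of MOC1 in the PD-1 arm the mitotic sum was 2925 in 173 cells whose receptor was seen once and 1162 in 53 cells of clones, while their S phase sums were 1185 (1117 to 1255) and 1282 (1160.1 to 1413). With isotype their mitotic sums were 3067 and 3461.

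The mitotic sum of Foxp3-positive cells, over all 28 members, lay above that of CD8 cells in 5 of 6 libraries. The MOC1 anti-PD-1 library was the exception, and its order by hashtag varied with the genes summed (below). In the PD-1 arm the Foxp3-positive sum was lower than with isotype in MOC1 and MOC22 and higher in MOC1E1. In MOC1 the mitotic sum was 2492 with isotype and 2267 in the PD-1 arm (log2 ratio −0.14, −0.18 to −0.10), and the S phase sum 1000.2 and 970.1 (−0.04, −0.11 to 0.02). Mki67 was lower, at 107 and 70.5 CPM, and Top2a at 130 and 102. Cdk1 (35.3 and 34.3), Ccnb1 (19.9 and 20.0) and Plk1 (18.7 and 18.1) differed by less than their counting error. Of the mitotic members, 4 of 28 were over 1.5-fold lower (all genes 6.33%) and 0 of 28 that much higher (2.43%). Cenpf (−0.79), Cenpe (−0.74) and Kif11 (−0.65) were lowest, and Kif20a (0.19), Mcm6 (0.20) and Cenpa (0.28) highest. Mitotic sums over hashtags overlapped, at 1529 to 3528 and 1478 to 3365. In all 4 isotype hashtags the Foxp3-positive cells stood above the CD8 cells for mitotic genes, and in the PD-1 arm in 2 of 4. Without Hmgb2, Stmn1 and Cks1b they did so in 4 of 4 with isotype and 3 of 4 in the PD-1 arm. For S phase genes one isotype hashtag was level (605.4 and 605.2 CPM) and the others were above, and in the PD-1 arm 0 of 4 were.

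In MOC1E1 the mitotic sum of Foxp3-positive cells was 1526 with isotype and 2168 in the PD-1 arm (0.51, 0.43 to 0.59), and the S phase sum 684 and 599.9 (−0.19). Of the mitotic members that reached 50 UMIs over both libraries, 12 of 20 were over 1.5-fold higher (all genes 5.21%). The cells of the PD-1 arm held more UMIs in all (2136950 against 1215084), so members high there reached 50 more easily. Over both phases, Cdca8 (1.48), Ccnb2 (1.51) and Cenpf (2.61) were at the top and Mcm2 (−0.68), Mcm7 (−0.56) and Pcna (−0.50) at the bottom. This class also held myeloid markers, at 3568 and 3808 CPM, and 32 of 193 and 73 of 306 cells held at least 2 of the 9 myeloid genes. Its B cell markers summed to 109.5 and 515.7 CPM, and their part in the ratio was not tested. Without those cells, an alternative chosen after seeing the data, the mitotic sums were 1670.0 and 1965 (0.23) and the S phase ratio was 0.08. Of the mitotic UMIs, 55.3% and 69.6% came from the 5% of cells with most UMIs, and without those cells the ratio was 0.04. In MOC22, 116 cells with isotype and 75 in the PD-1 arm gave mitotic sums of 2782 and 1872 (−0.57, −0.69 to −0.45) and S phase sums of 1126 and 339 (−1.73, −2 to −1.47). The S phase members that reached 50 UMIs here did so mainly through the isotype library, so no count of them is given. Rrm2 had 92 UMIs with isotype and 0 in the PD-1 arm, which is at least 15.1-fold lower against a floor of 3 counts in the library, and Mcm5 (−3.89) and Mcm3 (−3.62) came next. Mki67 was higher, at 56.7 and 146 CPM. The 5% of cells with most UMIs in each library were 11 of these cells with isotype and 2 in the PD-1 arm. Those 11 held 77.8% of the S phase and 79% of the mitotic UMIs, and the 2 held 11.1% and 72.4%. Without them the S phase ratio was −0.06.

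In CD4 cells, those without a Foxp3 UMI, the mitotic sum stood above isotype in the CTLA-4 arm of MOC1 and MOC1E1. It also did so in the PD-1 arm of MOC1E1 and MOC22. A cell with no Foxp3 UMI may still be a regulatory T cell. Regulatory T cell markers summed to 1840, 1970 and 1151 CPM in the isotype, PD-1 and CTLA-4 arms of MOC1. In MOC1E1 they summed to 859, 984 and 645. Their part in the ratios was not tested. In MOC1 the mitotic sum was 1562, 1499 and 2295 in the isotype, PD-1 and CTLA-4 arms, and the S phase sum 636, 737 and 726. Over 1.5-fold higher were 0 of 23 mitotic members in the PD-1 arm (all genes 2.93%) and 6 of 25 in the CTLA-4 arm (4.11%). The MOC1 mitotic log2 ratios were −0.06 and 0.56, the first becoming 0.13 without the cells of most UMIs and the second 0.28 without Stmn1, Hmgb2 and Cks1b. In MOC1E1 the mitotic sum was 1010.4, 1283 and 1679 and the S phase sum 392, 441 and 589. There 3 of 9 mitotic members with enough UMIs for a ratio were over 1.5-fold higher in the PD-1 arm (7.37%) and 8 of 11 in the CTLA-4 arm (9.16%). These MOC1E1 cells held 959037 UMIs in all with isotype, 1572090 in the PD-1 arm and 1532786 in the CTLA-4 arm. Members high in a treated arm thus had enough UMIs more easily. Both counts favour higher members and do not describe all 28. Myeloid markers in these MOC1E1 cells summed to 1080.3, 2349 and 287 CPM in the isotype, PD-1 and CTLA-4 arms, and their part in the ratios was not tested. In MOC22 the mitotic sum was 596 and 1264 from 475 and 116 cells. Over both libraries only 9 of 28 mitotic members had enough UMIs for a ratio, and 8 were over 1.5-fold higher (all genes 22.3%). Of these, Ube2c, Birc5, Top2a and Mki67 had 20, 25, 30 and 37 UMIs with isotype. They passed that limit only with the 66, 29, 31 and 25 UMIs of the PD-1 arm. The count thus favours higher members and does not describe all 28. There 3 cells of the PD-1 arm held 53.1% of the mitotic UMIs, and 7 cells with isotype held 38.1%. The thinned shares had wide intervals, such as 1.91% (0.876 to 3.59) and 5.36% (1.99 to 11.3) in MOC22.

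NK and myeloid cells were described in MOC1E1. In NK cells the mitotic sum was 681, 671 and 780.1 in the isotype, PD-1 and CTLA-4 arms and the S phase sum 419, 364 and 347. Hmgb2 gave 55.1 to 58.8% of the mitotic sum. Mki67 was 15.4, 10.6 and 25.8 CPM. In the PD-1 arm 0 of 7 mitotic members were over 1.5-fold higher (all genes 2.45%), and in the CTLA-4 arm 3 of 6 (8.33%). The S phase log2 ratio of the CTLA-4 arm was −0.27, and 0.04 without the cells of most UMIs. In myeloid cells Mki67 was 4.2, 6.81 and 5.54, and Plk1 was 0.721, 1.34 and 0. Of the mitotic members, 5 of 14 were over 1.5-fold higher in the PD-1 arm (2.22%) and 1 of 8 in the CTLA-4 arm (8.20%). The mitotic ratio of the PD-1 arm was 0.07, and −0.10 without the cells of most UMIs.

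In bulk RNA the carcinoma lines were compared directly, MOC1E1 with MOC1. Values are TPM, which corrects the level of a transcript for its length, and differences are of log2(TPM + 1), tested with limma and adjusted with the Benjamini-Hochberg method over all genes that reached 1 TPM in at least 3 libraries. The labels do not say that the 3 libraries of a group came from separate mice or cultures, so the p-values measure the spread between these samples. The tables of tumours and of cultures were deposited separately, and levels are set side by side without a test. Summed S phase members were 632 to 689 TPM in MOC1 and 642 to 706 in MOC1E1 tumours, and 2205 to 2276 and 2443.5 to 2516 in culture. Mitotic members summed to 1536 to 1618 and 1319 to 1680 in tumours, and to 4367 to 4465 and 5124 to 5158 in culture. In culture both sums were higher in every MOC1E1 library than in any MOC1 library, and in tumours the ranges overlapped. Carcinoma markers summed to 12222 to 18703 TPM in all 12 libraries. Myeloid markers summed to 853 to 959 TPM in MOC1 tumours, 256 to 479 in MOC1E1 tumours and at most 36.5 in culture. Bulk RNA cannot tell fewer cells of a type from less RNA per cell.

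In culture 27 of the 43 members rose in MOC1E1 (10 S phase and 17 mitotic) and 4 fell, where 20.2% of all genes rose and 33.2% fell. The median difference was 0.24 for S phase and 0.25 for mitotic members and −0.06 for all genes. Hmgb2 measured 164, 164 and 158 TPM in MOC1 and 299, 308 and 286 in MOC1E1 (0.87, SE 0.044, limma adjusted p = 5.3e-06). Cdca8 (borealin, of the chromosomal passenger complex that corrects spindle attachments) measured 133, 127 and 127 TPM and 220.4, 226 and 229 (0.80, SE 0.041, limma adjusted p = 5.6e-06). Mcm5, whose E2F words are shown above, measured 143, 152 and 142 TPM and 216, 209.5 and 214 (0.54, SE 0.044, limma adjusted p = 5.5e-05). In these 3 genes every MOC1E1 library lay above every MOC1 library, as in 23.9% of all genes tested. Stmn1, which destabilises microtubules, rose by 0.48, Ccna2 by 0.45, Ccne2 (cyclin E2) by 0.57, and both subunits of ribonucleotide reductase, Rrm1 and Rrm2, by 0.29. Mki67 rose from 97.6 ± 13.1 to 154 ± 7.04 TPM (SD, n = 3 each). Top2a did not pass the test (575 ± 9.77 and 577 ± 4.78 TPM), nor did the kinases Aurka (0.02) and Plk1 (0.05).

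Cyclin E1 and cyclin B2 fell while most members rose. Ccne1 measured 112, 111 and 110.5 TPM in MOC1 cultures and 23.1, 23.2 and 29.5 in MOC1E1 cultures (−2.10, SE 0.093, limma adjusted p = 2.7e-06). It was thus the member with the largest difference, while its paralogue Ccne2 rose. Ccnb2, a mitotic cyclin that pairs with CDK1, measured 61.0, 50.3 and 56.3 TPM and 26.6, 24.5 and 27.9 (−1.06, SE 0.083, limma adjusted p = 4.9e-05), while Ccnb1 rose from 184 to 221 TPM (0.26). Kif23, a kinesin of cytokinesis, fell by 0.28 and Birc5 (survivin) by 0.15, and both lost their calls when libraries were centred on their medians. With 1 library left out at a time, Kif23 kept its call in all 6 fits and Birc5 in 1 of 6 (limma adjusted p up to 0.0802).

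In tumours 3 members passed the test, against 18.6% of all genes (6.70% higher and 11.9% lower). Ccne1 measured 14.6, 14.3 and 14.2 TPM in MOC1 and 8.78, 8.5 and 7.55 in MOC1E1 tumours (−0.73, SE 0.119, limma adjusted p = 0.00692). Ccnb2 measured 25.6, 28.1 and 26.8 TPM and 8.83, 13.5 and 17.0 (−1.02, SE 0.209, limma adjusted p = 0.0153). Cdca8 measured 33.9, 38.8 and 34.4 TPM and 46.0, 54.4 and 53.5 (0.51, SE 0.106, limma adjusted p = 0.0162). In each of the 3 the groups did not overlap, where 16.6% of all genes had every MOC1E1 tumour above and 22.5% every MOC1E1 tumour below MOC1. Each of the 3 had changed in the same direction in culture. Cdca8 lost its call when any of MOC1 library 1 (adjusted p = 0.0560), MOC1 library 3 (0.0551) or MOC1E1 library 2 (0.0612) was left out, and Ccnb2 without MOC1 library 2 (0.0599) or 3 (0.0549). Ccne1 kept its call in all 6 (limma adjusted p up to 0.0341). With every library centred on its median, 2 members were higher and 2 lower in tumours, Mcm6 being added (0.24, limma adjusted p = 0.0494). Next in order without passing were Rrm1 (64.6, 63.7 and 70.0 TPM in MOC1, 70.8, 88.0 and 83.9 in MOC1E1, difference 0.28), Gins2 (0.36), Tyms (0.17), Ube2c (−0.31), Cks1b (0.20) and Cdk1 (0.29). Myeloid markers fell in MOC1E1 tumours (8 of 10, median −1.42), and their part in the members' values was not tested.

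**Figure D5:**
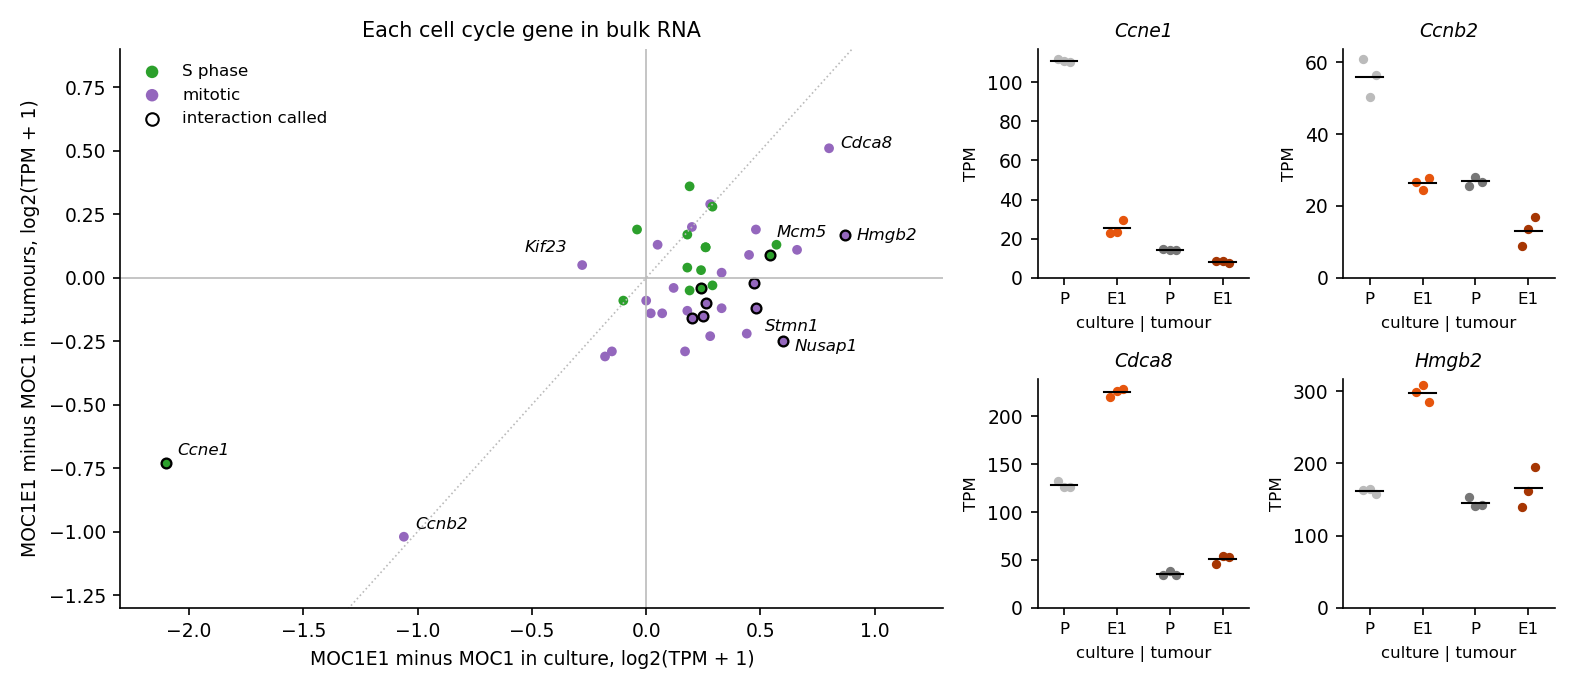
Difference of log2(TPM + 1), MOC1E1 minus MOC1, for each member, in culture (horizontal) against tumours (vertical). Members called by the interaction term are outlined, and small panels give the TPM of each library for Ccne1, Ccnb2, Cdca8 and Hmgb2. Ccne1 and Ccnb2 lie below 0 and Cdca8 above 0 on both axes, while most other members lie near 0 in tumours and above 0 in culture.

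The difference between the lines was itself compared between tumours and culture by an interaction term over all 12 libraries. Of the members 10 passed, 1 more positive in tumours (all genes 10.2%) and 9 more negative (6.61%). Ccne1 was the positive one (1.37, SE 0.133, limma adjusted p = 5.1e-05), its difference between the lines being smaller in tumours. Stmn1 measured 225, 232 and 249.8 TPM in MOC1 tumours and 200.03, 229.8 and 221 in MOC1E1 tumours, against 239, 222 and 234 and 322, 328 and 323 in culture (interaction −0.60, limma adjusted p = 0.00086). Nusap1, which bundles spindle microtubules, measured 19.5, 21.0 and 17.5 TPM and 13.2, 16.8 and 18.5 in tumours, against 34.3, 35.5 and 35.2 and 56.4, 48.5 and 56.2 in culture (−0.85, limma adjusted p = 0.0041). Hmgb2 (−0.70) and Cdc20 (−0.36), the activator of the anaphase ubiquitin ligase, followed, and so did Mcm5 (−0.45). These 3 and Ccne1, Stmn1 and Nusap1 passed with each of the 12 libraries left out in turn. Kif20a (−0.49), Cdca3 (−0.39), Ccnb1 (−0.36) and Pcna (−0.28) passed in 8, 4, 3 and 3 of those 12 fits.

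Other cycle genes are given beside all genes tested, of which 20.2% rose and 33.2% fell in culture, and 6.70% rose and 11.9% fell in tumours. In culture 22 of 52 other S phase genes rose and 9 fell, among them the histone chaperone Asf1b (0.69) and the E2F factor E2f1 (−0.54). Of 54 other mitotic genes 27 rose and 5 fell, among them Ckap2 (0.88) and the centromere protein Cenpm (−1.05). Of the 10 G1 cyclins and kinases 3 rose and 6 fell, led by E2f2 (1.83) and the cyclin D genes Ccnd3 (−0.63) and Ccnd2 (−0.48). Of 17 inhibitors tested 8 rose and 4 fell, with Cdkn2c (1.04) and E2f7 (1.28) higher and the p53 target Cdkn1a (p21, −0.70) lower. In tumours Rfc1 (0.51), Chaf1b (0.43) and Dnmt1 (0.36) rose among other S phase genes. Smc4 (0.60) and Ckap2 (0.57) rose and Cenpm (−1.02) and Ube2s (−0.38) fell among other mitotic genes. Cdk4 (0.35) rose and Ccnd3 (−0.55) fell. Cdkn1c (0.84) and Trp53inp1 (0.79) rose, and Cdkn1a (−0.89), Btg2 (−0.88) and Ccng1 (−0.49) fell. By the interaction term, 1 of 52 other S phase genes was more positive in tumours and 3 more negative (median −0.08), and 0 and 7 of 54 other mitotic genes were (median −0.24), against 10.2% and 6.61% of all genes. Of the G1 genes 3 and 1 were, and of 19 inhibitors 3 and 4.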

How the data were processed

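RNA was measured in 8 single-cell libraries (10x 5' kit, per the labels) and 12 bulk libraries (Illumina mRNA kit, per the labels). The deposited single-cell tables hold UMI counts per gene and barcode, with no normalization. The deposited bulk tables hold TPM, so sequencing depth is unknown. Cell Ranger 3.0.2, Seurat 3.0.01, Trimmomatic 0.36, kallisto 0.46.0 and DESeq2 are named in the submitters' processing notes, with builds mm10 and GRCh38 and no roles. The deposited receptor tables hold contigs with UMI counts. The 3 tables named for MOC1 are listed by the labels under MOC1E1 and were used for it on that ground. As a check, 81.6 to 88.6% of their barcodes were found among MOC1E1 cells of the same treatment, while other single-cell tables held no more than 0.9%. Receptor tables of MOC22 were not used here because each label names the other's table.

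The members and gene lists were chosen with earlier results of these data known. All 43 members could be named; those given with values in every library were set by a rule, namely 10 members in single cells, the 3 highest and 3 lowest ratios in CD8 and Foxp3-positive cells, and in bulk RNA the 5 S phase and 5 mitotic members of smallest p. Bulk identifiers took symbols from the MOC1 feature table (30958 of 55573 matched). From the UMI counts, sums per class, exact intervals and log2 ratios (members with at least 50 UMIs over both libraries, 0.5 UMIs added) were computed, with no test, since each group is 1 library. Doublets were not called; cells with more than 1 hashtag (173, 151 and 125 in the MOC1 libraries) and the 5% of cells with most UMIs were left out in an alternative. For bulk RNA limma-trend (limma 3.58.1 in R 4.3.3) was run on log2(TPM + 1), with genes of at least 1 TPM in at least 3 libraries kept and called at a Benjamini-Hochberg adjusted p of 0.05 or less. Alternatives covered the pseudocount, the filter, median centring, each library left out, stricter classes and shorter lists. The ratios and intervals of single genes, not the sums, were first tried on simulated Poisson counts (Python 3.11.15, numpy 2.4.6, pandas 2.3.3, scipy 1.17.1, matplotlib 3.10.9). Such counts lack the gathering of UMIs in few cells, so the trial does not check the intervals against it.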

Additional observations from a re-analysis of the deposited data

Results flagged for a closer look

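The difference between MOC1E1 and MOC1 differed between tumours and culture in 10 members, by the interaction term of the limma fit over all 12 libraries. The difference was more positive in tumours for Ccne1 (1.37) and more negative for Nusap1 (−0.85), Hmgb2 (−0.70), Stmn1 (−0.60), Kif20a (−0.49), Mcm5 (−0.45), Cdca3 (−0.39), Cdc20 (−0.36), Ccnb1 (−0.36) and Pcna (−0.28), all on the log2(TPM + 1) scale. The tumour libraries hold RNA of other cell types as well, with myeloid markers at 256 to 959 TPM, and its part in these values was not tested.

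The mitotic sum of Foxp3-positive cells with anti-PD-1 moved in opposite directions between models, with log2 ratios to isotype of 0.51 in MOC1E1, −0.14 in MOC1 and −0.57 in MOC22. Without probable doublets the values of MOC1E1 and MOC1 were 0.042 and −0.054, and without Stmn1, Hmgb2 and Cks1b that of MOC22 was −0.187. Each value compares 1 library with 1 library, and the difference between models was not tested.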

How the results depend on the processing

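No paired analysis was possible because the bulk columns carry no replicate numbers that match those of the labels, and the single-cell groups are 1 library each. Of 166 single-cell alternatives, 93 kept the log2 ratio to isotype within its interval, 68 moved it and 5 reversed it, where reversed is said only of a ratio whose interval left out 0. Ratios whose interval held 0 changed sign too: S with anti-PD-1 in MOC1 Foxp3-positive, MOC1E1 CD4, MOC1E1 myeloid and MOC22 CD4 cells, and M with anti-PD-1 in MOC1E1 NK cells. The cause was not tested for any of them, and only counting error limits these ratios, not the spread between mice. In the lists below S and M stand for the S phase and mitotic sums.

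The first alternative left out cells with more than 1 hashtag (MOC1 only) and the 5% with most UMIs. Whether these were doublets or dividing cells was not tested. Their mitotic sum was 5088 CPM against 2365 in all CD8 cells of the MOC1 anti-PD-1 library, and 5836 against 1131 with isotype in MOC22. Without them the anti-PD-1 ratios in MOC1 were 0.499 (S) and 0.532 (M) in CD8, 0.130 (M, reversed) in CD4 and −0.054 (M) in Foxp3-positive cells. With anti-CTLA-4 in MOC1 they were 0.436 (S, CD8) and 0.638 (M, CD4). In MOC1E1 with anti-PD-1 they were 0.329 (S, CD8), 0.781 (M, CD4), 0.042 (M, Foxp3-positive), 0.235 (M, NK), and −0.250 (S) and −0.097 (M, reversed) in myeloid cells. In MOC1E1 with anti-CTLA-4 they were 0.612 (M, CD8), 0.373 (S) and 0.489 (M) in CD4, and 0.036 (S, reversed) and 0.605 (M) in NK cells. In MOC22 they were 0.522 (S) and 0.648 (M) in CD8, 0.747 (M) in CD4 and −0.059 (S) in Foxp3-positive cells.

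With 2 UMIs required for a class, they were 0.740 (M, CD8, anti-PD-1), 0.353 (S) and −0.183 (M) in CD4 with anti-PD-1, 0.567 (S) and 1.207 (M) in CD8 and 0.228 (M) in CD4 with anti-CTLA-4 in MOC1. In MOC1E1 with anti-PD-1 they were −0.036 (S) and 0.665 (M) in CD4 and 0.390 (M) in Foxp3-positive cells, and in MOC22 0.420 (M, CD8), −0.100 (S) and 0.718 (M) in CD4 and −0.703 (M, Foxp3-positive).

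Without Stmn1, Hmgb2, Cks1b, Dut and Pcna they were 0.892 (M, CD8, anti-PD-1), 1.164 (M, CD8, anti-CTLA-4), and 0.105 (S) and 0.279 (M) in CD4 with anti-CTLA-4 in MOC1. In MOC1E1 with anti-PD-1 they were 0.032 (S) and 0.529 (M) in CD8, 0.501 (M, CD4), 0.727 (M, Foxp3-positive) and 0.032 (S, myeloid). With anti-CTLA-4 they were 1.250 (M, CD8), 0.910 (M, CD4), and −0.460 (S) and 0.572 (M) in NK cells. In MOC22 they were 0.068 (S, CD8), −0.228 (S) and 1.730 (M) in CD4 and −0.187 (M, Foxp3-positive).

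As the median over members they were 1.015 (M, CD8, anti-PD-1), −0.129 (S) and −0.197 (M) in Foxp3-positive cells, 0.561 (S) and 1.362 (M) in CD8 and 0.318 (M) in CD4 with anti-CTLA-4 in MOC1. In MOC1E1 with anti-PD-1 they were 0.882 (M, Foxp3-positive), and 0.006 (S) and 0.248 (M) in myeloid cells. With anti-CTLA-4 they were 1.234 (M, CD8), 1.162 (M, CD4), 0.478 (M, NK) and −0.344 (M, myeloid). In MOC22 they were −0.003 (S, reversed) and 0.225 (M) in CD8 and −0.233 (S) and 1.458 (M, over only 9 members) in CD4. Without cells holding at least 2 myeloid genes, chosen after seeing the data, they were 0.368 (M, CD8, anti-PD-1), 0.078 (S, reversed) and 0.234 (M) in Foxp3-positive cells and 0.601 (M, CD4, anti-CTLA-4) in MOC1E1, and 0.387 (M, CD8) in MOC22.

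In bulk RNA, leaving out 1 library at a time gave 0 to 1 members higher and 1 to 3 lower in tumours (1273 to 2645 genes in all), 26 to 29 higher and 3 to 5 lower in culture (6168 to 6653), and 1 more positive and 5 to 11 more negative in the interaction (2011 to 3012). Ube2c was called in tumours without MOC1E1 library 3 (−0.415, limma adjusted p = 0.0205). Median centring moved the culture median of all genes from −0.062 to 0.066, so differences there count relative to it. It left 36 members higher and 2 lower in culture, Kif23 (−0.150) and Birc5 (−0.025) losing their calls, 2 higher in tumours, and 14 more negative in the interaction. Without a filter Dut in culture and Ccnb1, Cdca3 and Pcna in the interaction lost their calls (limma adjusted p = 0.0675, 0.0524, 0.0587 and 0.0702). With a pseudocount of 0.1 no member's call changed.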
